A study of Chlamydomonas reinhardtii with 42 samples.

Results

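Among 13886 Chlamydomonas reinhardtii genes with usable counts, 100 were chosen by the difference between their measured light responses with and without acetate. For each gene, the light response (the level in high light, HL, minus the level in low light, LL) was taken in acetate and in acetate-free medium, and the second was subtracted from the first. This difference of light responses was computed on the log2 scale after 15 and 60 min of HL on day 1 and on day 2. The score of a gene is the lowest of its 4 differences, and the members are the 100 highest scores, which is 0.72% of the genes kept. They include LHCSR3.1 and LHCSR3.2, the genes of the main photoprotective antenna protein of this alga, and 4 genes of a list for the CO2-concentrating mechanism.

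A positive difference can arise when a transcript goes up further in acetate, or when it goes down further without acetate, and the second was the more frequent among the members. By condition means, 68 of the 100 members were lower in HL than in LL at all 4 times without acetate (26% of all genes). In acetate, 46 had a mean above their LL level at all 4 times (22.4% of all genes). The working description of these genes as having a stronger light rise in acetate therefore fitted 46 of them, and they are called here the genes with a more positive light response in acetate. All of these values entered the choice of the members, so they are given as a description and without a test.

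Wild-type strain CC-125, grown in acetate-containing TAP medium in dim light, was moved to Sueoka's high salt medium (HSM), a mineral medium without organic carbon, in low light (5 µmol photons). After a day of acclimation to HSM in this light, part of the culture received 20 mM acetate at time 0 (acetate) and the rest did not (HSM). LL samples were taken at 15, 240 and 1440 min, and part of the cultures was moved to high light (300 µmol photons) at 240 min (day 1: 255 and 300 min) and at 1440 min (day 2: 1455 and 1500 min), for 15 and 60 min of HL. The 14 conditions have 3 libraries each, 42 in all, of which 36 (those at 240 min and later) entered the rule. HL samples were also taken later than the LL samples they are set against, the model is a single strain in batch culture, and the study calls the libraries of a condition biological replicates. No source used here says whether they came from separate cultures, so that p-values measure only the spread between these libraries.

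Acetate enters metabolism as acetyl-CoA, and its respiration releases CO2 inside the cell. Strong light without acetate makes the cells depend on photosynthesis for carbon, and when CO2 runs low they switch on the CO2-concentrating mechanism (CCM), a set of carbonic anhydrases, bicarbonate channels and pyrenoid proteins that bring CO2 to Rubisco. The same conditions switch on qE, the rapid and harmless release of excess light energy as heat, which in Chlamydomonas needs LHCSR proteins. LHCSR3 and many CCM genes are known to be repressed when acetate or CO2 is plentiful.

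Counts per library ranged from 19232757 to 34098899 (median 25197659), and levels are given as CPM, counts scaled to the size of the library and corrected by TMM, with TMM factors from 0.454 to 1.57. LHCSR3.1, used as a check of the light labels, was higher in every HL library than in every LL library of the same medium and day. Replicates 1 and 2 of HSM at 1440 min LL differed most of all replicate pairs (chi-square per degree of freedom 158.5, against 6.506 for the closest pair), and replicate 2 had the lowest TMM factor of the series. When that library was left out and the rule applied again, 72 of the 100 members remained among the 100 highest scores, the lowest number for any library. The members were as abundant as other genes, with a median of 7.73 CPM (7.84 over all genes), but ranged from 0.658 to 1905 CPM, and 23 of them averaged under 2 CPM.

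The median level of the members followed a crossing course in the 2 media. In LL at 240 min it was 1.69 to 1.87 log2 CPM over the 3 acetate libraries and 3.01 to 3.03 over the 3 HSM libraries. At 255 min, in HL, it was 1.96 to 2.00 in acetate and 1.34 to 1.58 in HSM, and after 60 min it was 2.05 to 2.28 in acetate and 1.60 to 1.86 in HSM. On day 2 the LL medians were 2.25 to 2.55 in acetate and 3.01 to 3.23 in HSM. After 15 min of HL they were 3.09 to 3.36 in acetate and 1.46 to 1.86 in HSM, and after 60 min they were 3.86 to 4.16 in acetate and 1.49 to 1.84 in HSM. The acetate and HSM libraries did not overlap at any of these 6 times, with acetate below HSM in LL and above it in HL. The median over all genes stayed between 2.59 and 2.90 in all 36 of these libraries. The TMM scaling itself tends to hold that median level, so it is a reference for the scale and no separate control.

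**Figure D1:**
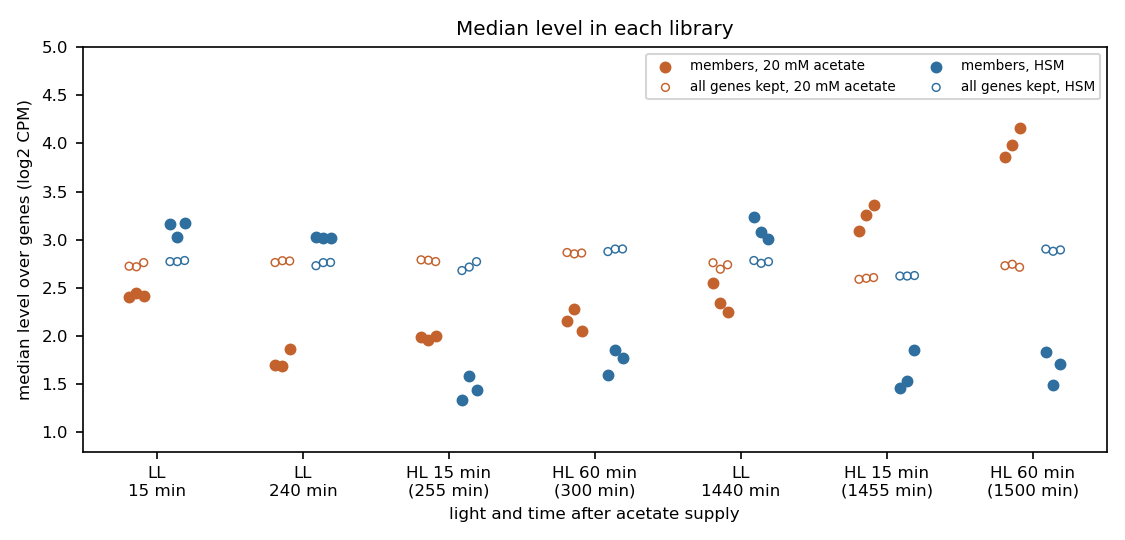
Median log2 CPM over the 100 members (filled) and over all genes kept (open) in each of the 42 libraries, in acetate (orange) and HSM (blue), against light and time after acetate supply. In acetate the members' median lies between 1.69 and 1.87 in LL at 240 min and reaches 3.86 to 4.16 after 60 min of HL on day 2, while in HSM it is lower in all HL libraries than in all LL libraries.

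In acetate, the median light response of the members was 0.30 and 0.38 log2 after 15 and 60 min of HL on day 1 and 0.60 and 1.45 on day 2, against medians of 0.01, 0.04, -0.07 and 0.05 over all genes. In HSM it was -1.31 and -1.27 on day 1 and -1.09 and -1.16 on day 2, against -0.03, 0.12, -0.13 and 0.10 over all genes. The largest shift in acetate thus came after 60 min on day 2, when 62 members were above their LL level by more than 1 log2 unit (24.8% of all genes) and 9 were below it by as much (23.6%). All 3 acetate HL libraries lay above all 3 acetate LL libraries in 46 members (36%), 50 (36.4%), 52 (34.3%) and 72 (39.4%) at the 4 times in order, and below them in 30 (32.7%), 20 (31.9%), 17 (36.6%) and 11 (35.3%). In HSM the members more than 1 log2 unit below LL numbered 56 (21%), 58 (14%), 51 (24.5%) and 54 (18.2%) at the 4 times in order, and those above it by as much numbered 8 (19.3%), 3 (15.4%), 10 (18.9%) and 3 (17.2%).

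The median difference of light responses was 1.38 and 1.64 on day 1 and 1.60 and 2.45 on day 2. With library size as the only scaling, which moved the median of all genes to 0.25, -0.31, -0.22 and -1.43, the members' medians were 1.59, 1.43, 1.31 and 1.06, so that the time with the highest median became the one with the lowest. With the TMM scaling the difference was greatest after 60 min on day 2 in 64 members (36.2% of all genes), and it was larger at 60 than at 15 min on both days in 55 (29.7%) and smaller on both days in 8 (34%). Of the members, 95 exceeded 1 log2 unit at all 4 times, and these are all the genes that did so (0.684%), while 103 genes lay below -1 at all 4 times (0.742%). At the edge of the rule, the scores of the lowest members were 0.994 (Cre16.g663450), 0.993 (Cre02.g142126) and 0.991 (Cre11.g467710), and the next genes, which are no members, had 0.991 (Cre05.g230650), 0.990 (Cre02.g094450) and 0.989 (Cre04.g228950). The limit therefore cuts through closely spaced scores.

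**Figure D2:**
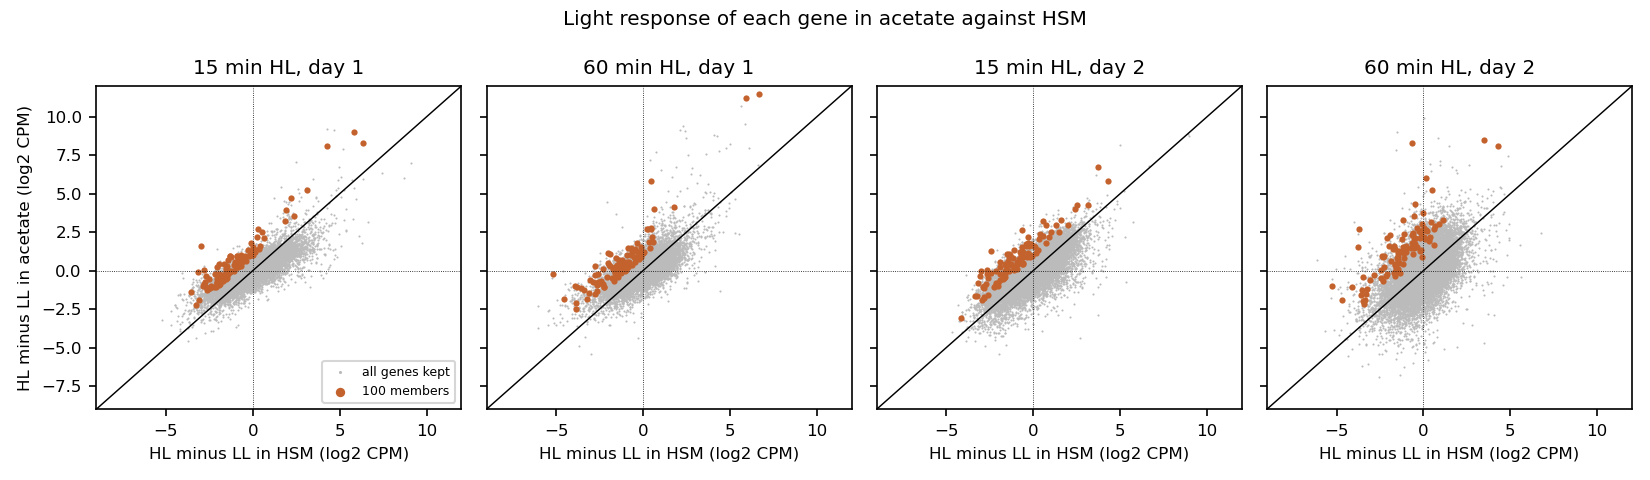
Light response in acetate (HL minus LL, log2 CPM) against the light response in HSM for all 13886 genes kept (grey) and the 100 members (orange), after 15 and 60 min of HL on each day; the line marks equal responses. Members lie above the line by the rule, mostly left of 0 in HSM, with medians of -1.31 and 0.30 (HSM and acetate axes) after 15 min on day 1 and -1.16 and 1.45 after 60 min on day 2, and the LHCSR3 genes at the upper right.

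The members fell into several patterns. By condition means, HL was above LL in acetate and below LL in HSM at all 4 times in 19 of them. This was a pattern of only 63 genes in all (0.454%). Some of these differences were small, with overlapping libraries, as in Cre02.g087500 in acetate after 15 min on day 2 (0.02 log2 units). In 7 members HL was above LL in both media at all 4 times (16% of all genes), and in 12 it was at no time above LL in acetate (19.3%). These 12 were below LL at all 4 times in HSM too, so that for 11 of them a more positive response in acetate was a smaller drop of the condition means. The other, Cre06.g263200, had 0 to 5 counts in every acetate library from 240 min on, too few to measure a drop. Of the 11, Cre03.g149050 had 0 to 3 counts after 15 min of HL on day 2 in both media, too few to size its drops there. In Cre16.g693601, Cre02.g077850 and Cre11.g467710 the differences at that time were 1.09, 1.07 and 0.991, with standard errors (SE) of 1.78, 1.41 and 1.29. A light response over 1 log2 unit in acetate and within 1 unit in HSM at every time was found in 4 members, Cre07.g349700, Cre12.g498000, Cre09.g386986 and Cre07.g315050 (0.0648% of all genes). Cre07.g315050 had 0 to 6 counts in every HSM library, too few to measure a light response in HSM, and where its HSM libraries were all at 0 the fitted value is set by the prior count. The mirror case, within 1 unit in acetate and below -1 in HSM at every time, was found in 7 members (0.36%). A response over 1 unit at all 4 times was seen in acetate in 16 members (2.61%) and in HSM in 2, the LHCSR3 pair (6.12%).

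**Figure D3:**
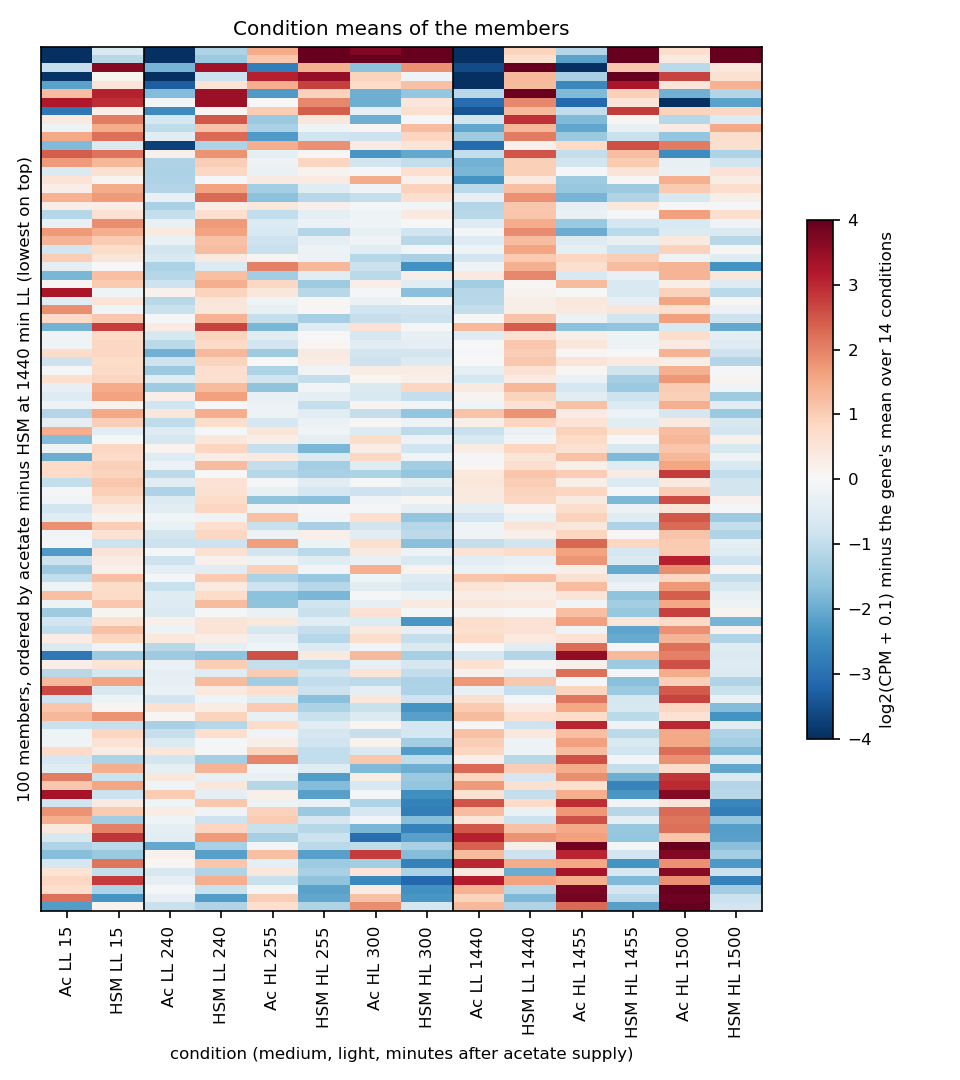
Mean level of each of the 100 members in the 14 conditions, as log2(CPM + 0.1) minus the gene's mean over conditions (red high, blue low, colours capped at 4 units), with acetate left of HSM at each time and rows ordered by the acetate effect at 1440 min LL. The upper rows are low in acetate LL at 240 and 1440 min, and the column for acetate after 60 min of HL on day 2 is red in most rows, where 72 members were above HSM by more than 1 log2 unit (22.4% of all genes).

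At each of the 4 times the highest light response of all members was that of an LHCSR3 gene, in acetate and in HSM. LHCSR3.2 (Cre08.g367400), which had the highest score (3.00), was at 0.391, 0.194 and 1.44 CPM in acetate at 240 min LL, against 9.66, 64.2 and 65.4 CPM in HSM. After 60 min of HL it was at 1441, 1427 and 1357 CPM in acetate, against 1964, 2256 and 2084 CPM in HSM. The transcript thus stood near the detection limit in acetate LL and came close to the HSM level within 60 min of HL on day 1, without reaching it in any library. The light response was 11.25 log2 units in acetate and 5.93 in HSM, a difference of 5.32 (SE 1.17). HSM replicate 1 at 240 min LL was far below the other HSM libraries.

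On day 2 the order of the media was the same and the gap wider. LHCSR3.2 was at 0.337, 0.448 and 0.325 CPM in acetate at 1440 min LL, against 144 to 264 CPM in the 3 HSM libraries. After 60 min of HL it was at 173, 95.3 and 257 CPM in acetate, against 2059, 2215 and 2202 CPM in HSM. Acetate lay below HSM without overlap at all 7 times, so the larger light response in acetate went together with a lower level in HL (acetate minus HSM -3.74 log2 units after 60 min on day 2).

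LHCSR3.1 (Cre08.g367500, score 1.51) also encodes LHCSR3. Its light responses were 11.47 log2 units in acetate and 6.68 in HSM after 60 min on day 1. After 60 min on day 2 they were 8.10 in acetate and 4.298 in HSM. The differences were 4.79 (SE 1.04) and 3.80 (SE 0.75). In acetate LL the gene had 5, 6 and 30 counts at 240 min and 3, 8 and 5 counts at 1440 min. The size of its responses in acetate thus rests on few LL counts. The 2 genes are near-identical copies that lie next to each other in the reference order, so the split of reads between them is uncertain, and their levels ran closely in parallel (Spearman's rho 0.99 over the 42 libraries, which share media and light). They were the only members among the 55 photoprotection genes on the study's list (3.64%, against 0.72% of all genes). Over that whole list the median difference was -0.33 and -0.13 on day 1 and -0.05 and 0.89 on day 2, so the list as a whole did not share the LHCSR3 pattern at the first 3 times.

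Of the 71 CCM genes with usable counts, 4 were members (5.63%), and BST1, EPYC1 and LCI11 are named below with the putative Rap-like factor Cre02.g103800. Over the whole CCM list the median difference was 0.27 and 0.72 on day 1 and 0.09 and 1.51 on day 2, and 22 of the 71 genes had a positive score, as had 2219 of all 13886. The next CCM genes by score, outside the members, were LCI24 at rank 113, Cre16.g655050 at rank 174 and LCIB, a pyrenoid-peripheral carbonic anhydrase-like protein, at rank 189.

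BST1 is a bestrophin-like protein of the thylakoid membrane that is thought to carry bicarbonate towards the lumen. The name was given to Cre16.g662600, the gene whose levels over the 42 libraries had the highest rank correlation with those plotted for BST1. This gene was at 1.17, 1.13 and 2.62 CPM in acetate at 240 min LL, against 26.1, 27.6 and 28.2 CPM in HSM. After 15 min of HL it was at 410.1, 455 and 422 CPM in acetate, against 718, 656 and 327 CPM in HSM, and after 60 min at 92.8, 66.8 and 116 CPM in acetate, against 81.7, 24.4 and 26.3 CPM in HSM. In both media the transcript thus peaked at 15 min on day 1 and was lower at 60 min, with overlap between media at both HL times.

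On day 2 the 2 media differed in timing. BST1 was at 13.6, 19.3 and 27.4 CPM in acetate after 15 min of HL, against 1449, 860 and 881 CPM in HSM. After 60 min it was at 307, 271 and 393 CPM in acetate, against 69.2, 66.7 and 89.0 CPM in HSM. The HSM level was high early and low later, and the acetate level was higher at 60 than at 15 min, which gave the widest difference of light responses of any member, 8.95 log2 units (SE 0.46). Acetate LL libraries at 1440 min held 0.949, 1.26 and 0.651 CPM, against 109, 80.1 and 176 CPM in HSM.

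LCI11 (Cre16.g663450), a low-CO2 inducible relative of BST1, was also low in acetate LL. It was at 3.55, 4.11 and 3.16 CPM in acetate at 1440 min LL, against 360, 460 and 421 CPM in HSM. After 15 min of HL it was at 27.9, 26.6 and 32.8 CPM in acetate, against 1809, 1608 and 1514 CPM in HSM, and after 60 min at 249, 200.1 and 283 CPM in acetate, against 477, 424 and 453 CPM in HSM. Acetate was below HSM without overlap at all 7 times, and its light response after 60 min on day 2 was 6.04 log2 units, against 0.13 in HSM.

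EPYC1 (listed as EPYC or LCI5, Cre10.g436550), the linker protein that holds Rubisco together in the pyrenoid, was the most abundant member, with a mean of 1905 CPM. At 1440 min LL it was at 385, 452 and 352 CPM in acetate, against 2138, 4212 and 2211 CPM in HSM. On day 2 the 60 min HL libraries held 1211, 1194 and 1153 CPM in acetate, against 904, 774 and 844 CPM in HSM. At this time the level was higher in HL than in LL in acetate and lower in HL than in LL in HSM, with light responses of 1.59 and -1.69 log2 units. After 15 min the responses in HSM were -0.08 on day 1 and 0.17 on day 2, with overlapping libraries.

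Of the 407 listed transcription factors 371 had usable counts, and 3 of these were members (0.809%, close to the 0.72% of all genes). Cre02.g103800, the putative Rap-like factor on the CCM list, had rank 9 and was low throughout. It was at 11.0, 9.76 and 12.5 CPM in acetate after 60 min of HL on day 2, against 3.51, 3.04 and 3.22 CPM in HSM, while at 1440 min LL it was at 6.00, 6.39 and 6.67 CPM in acetate, against 9.00, 10.5 and 8.79 CPM in HSM. Cre16.g686100, of the SBP zinc-finger family, was at 12.5, 11.5 and 13.9 CPM in acetate after 60 min on day 2, against 2.51, 2.06 and 2.403 CPM in HSM. Both factors were lower in acetate than in HSM in LL and higher in acetate at that time, without overlap.

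Cre12.g523000, of the C3H zinc-finger family, was at 3.22, 2.02 and 3.09 CPM in acetate after 60 min on day 2, against 0.502, 0.584 and 0.518 CPM in HSM. It lies next to another member, Cre12.g523026, in the order of the reference annotation, and the levels of the pair went together (rho 0.90 over the 42 libraries). Cre12.g523026 was at 7.33, 3.62 and 5.47 CPM in acetate at the same time, against 0.847, 1.25 and 0.629 CPM in HSM. Further neighbouring pairs were Cre17.g728600 with Cre17.g728650 (rho 0.70) and Cre08.g366250 with Cre08.g366300 (rho 0.44), each with no gene between them. These are descriptions over libraries that share conditions.

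**Figure D4:**
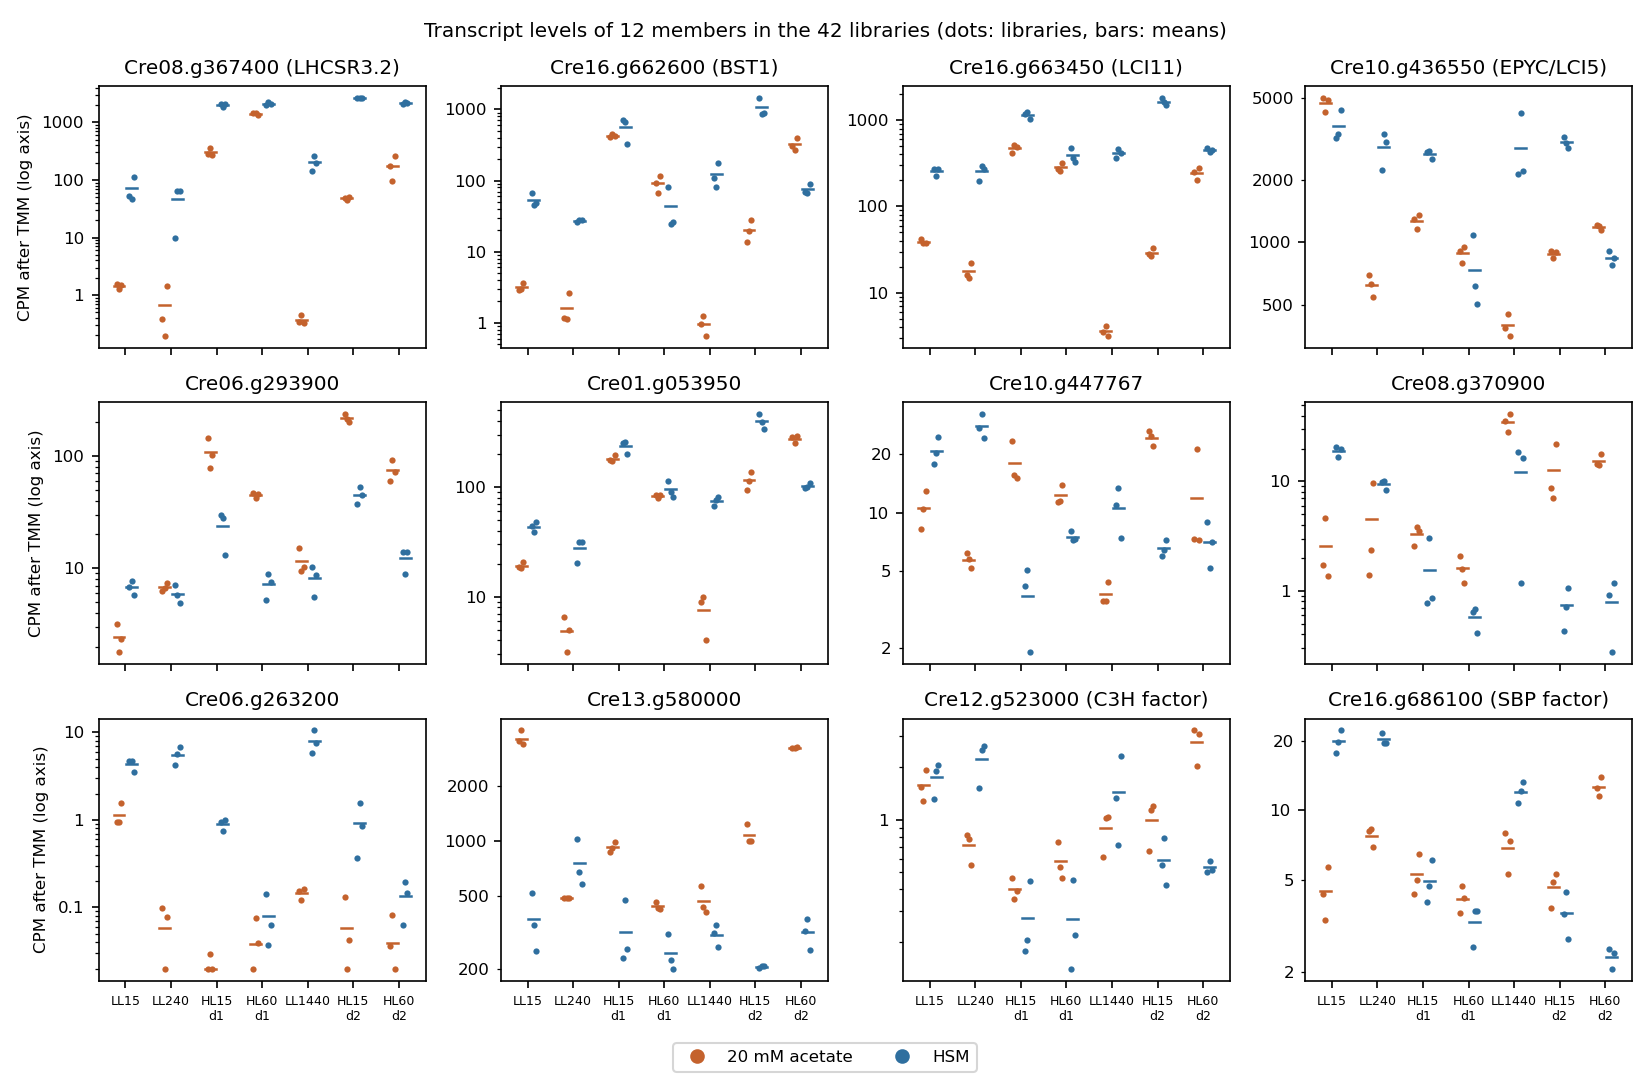
Level of 12 members in the 42 libraries (CPM after TMM, log axis; dots are libraries, bars condition means, values under 0.02 drawn at 0.02), in acetate (orange) and HSM (blue), at LL 15, 240 and 1440 min and after 15 and 60 min of HL on day 1 (d1) and day 2 (d2). LHCSR3.2 and LCI11 are lower in acetate at all 7 times, whereas Cre06.g293900 is higher in acetate at all 4 HL times.

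Among the members that no source here annotates, Cre10.g447767 had the second highest score (2.01) and opposite responses in the 2 media. It was at 6.22, 5.75 and 5.16 CPM in acetate at 240 min LL, against 27.3, 32.2 and 24.2 CPM in HSM. After 15 min of HL it was at 23.4, 15.7 and 15.1 CPM in acetate, against 4.202, 5.05 and 1.90 CPM in HSM. The order of the media was thus opposite in LL and HL, without overlap, and this was the largest difference of any member at that time (4.61 log2 units, SE 0.49). After 60 min on day 2 the media overlapped, at 7.33, 21.2 and 7.23 CPM in acetate and 9.01, 5.18 and 7.06 CPM in HSM.

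Cre06.g293900 (rank 7) was within 1 log2 unit of HSM in LL at 240 and 1440 min and parted in HL. At 240 min LL it was at 6.29, 6.64 and 7.36 CPM in acetate, against 7.01, 5.78 and 4.89 CPM in HSM. The libraries taken after 15 min of HL on day 2 held 235, 213 and 202 CPM in acetate, against 37.5, 52.7 and 45.2 CPM in HSM. Its mean was higher in HL than in LL in both media, with acetate 2.23 to 2.66 log2 units above HSM at the 4 HL times. In HSM, however, the HL and LL libraries overlapped after 60 min on both days (light responses 0.27 and 0.60). This gene and 8 other members (9 in all) were within 1 unit of HSM in LL at 240 and 1440 min and more than 1 unit above it in HL at all 4 times (0.403% of all genes). Cre02.g095105 (rank 6), also of these 9, was at 104, 97.8 and 96.5 CPM in acetate after 60 min on day 2, against 12.5, 13.0 and 11.9 CPM in HSM.

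Cre13.g580000, the second most abundant member (mean 913 CPM), was at 3191, 3218 and 3265 CPM in acetate after 60 min on day 2, against 324, 376 and 254 CPM in HSM. The LL levels at 1440 min were 571, 440.0 and 410 CPM in acetate, against 314, 348 and 266 CPM in HSM. Its light response was 2.78 log2 units in acetate and 0.03 in HSM. Cre08.g365692, the fifth by abundance, was at 317, 272 and 355 CPM in acetate after 60 min on day 2, against 245, 299 and 231 CPM in HSM, which overlap.

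The 4 members with a response over 1 unit in acetate and within 1 unit in HSM included genes of moderate and of very low level. Cre07.g349700 was at 126, 118 and 141 CPM in acetate after 60 min on day 2, against 2.79, 6.43 and 3.18 CPM in HSM, and at 1440 min LL at 23.81, 14.296 and 14.64 CPM in acetate, against 4.38, 0.812 and 4.01 CPM in HSM. Cre09.g386986 was at 3.92, 4.78 and 4.59 CPM in acetate after 60 min on day 2, against 0.345, 0.389 and 0.222 CPM in HSM. The highest fitted acetate effect in HL among the members was that of Cre13.g585500, which was near 0 in HSM. It was at 9.71, 10.6 and 7.90 CPM in acetate after 60 min on day 2, against 0.126, 0 and 0 CPM in HSM. In all 3 genes the acetate libraries were above the HSM libraries at that time.

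Cre01.g053950 (rank 12) and Cre02.g143650 (rank 97), named after their values were seen, differed between the media in opposite or unequal ways at the 2 HL times of day 2. Cre01.g053950 was at 94.5, 114 and 136 CPM in acetate after 15 min of HL on day 2, against 461, 391 and 336 CPM in HSM, and after 60 min at 287, 251 and 290 CPM in acetate, against 97.4, 100.4 and 109 CPM in HSM. Cre02.g143650 was at 28.3, 26.7 and 32.8 CPM in acetate after 15 min, against 437, 405 and 369 CPM in HSM, and after 60 min at 103, 78.3 and 141 CPM in acetate, against 96.5, 112 and 99.4 CPM in HSM. In both genes acetate was lower than HSM at 15 min, and at 60 min it was higher in the first and overlapped in the second.

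In other high scores the share of a response in acetate and of a drop in HSM varied with time. Cre13.g605700 (rank 8) was at 4.17, 3.69 and 4.298 CPM in acetate at 240 min LL and at 3.29, 3.56 and 3.65 CPM after 15 min of HL. In HSM it was at 32.3, 26.6 and 25.9 CPM at 240 min LL and at 6.75, 5.67 and 7.24 CPM after 15 min of HL. Its light responses at that time were -0.21 in acetate and -2.10 in HSM, whereas after 60 min on day 1, the time that set its score, they were 1.03 in acetate and -0.68 in HSM. Cre16.g667950 (rank 3) and Cre09.g402602 (rank 10) were low, with no library over 26.2 and 4.87 CPM. The light responses of Cre16.g667950 after 15 min were 0.24 in acetate and -2.06 in HSM on day 1, and 1.19 in acetate and -0.78 in HSM on day 2. Those of Cre09.g402602 were 1.80 in acetate and -0.08 in HSM on day 1, and 0.87 in acetate and -0.73 in HSM on day 2. The scores of both genes were set after 15 min on day 2.

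Very few counts stood behind 2 of the 10 highest scores. Cre06.g263200 (rank 4) was at 0.153, 0.122 and 0.163 CPM in acetate at 1440 min LL and at 0.0366, 0.0823 and 0 CPM after 60 min of HL on day 2. In HSM it was at 5.86, 10.6 and 7.58 CPM at 1440 min LL and at 0.0627, 0.195 and 0.148 CPM after 60 min of HL. The transcript was thus highest in HSM LL and near 0 in acetate from 240 min on, and a light response could not be measured in acetate at this depth. Cre12.g534750 (rank 5) did not exceed 2.55 CPM in any library. At least 1 condition had no library over 3 counts in 7 members, and in Cre07.g315050 all HSM libraries at 240 min LL and after 15 min of HL on day 1 were at 0. Against a floor of 3 counts per library, Cre07.g315050 was at least 3.24-fold higher in acetate at 240 min LL and at least 6.63-fold higher in acetate after 15 min of HL, and setting the gene to these bounds left the medians of -1.26 and 0.27 as they were.

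Turned round, the same numbers describe the effect of acetate in each light. In LL the median acetate effect on the members (acetate minus HSM) was -1.26 log2 units at 240 min and -0.51 at 1440 min, against 0.03 and 0.01 over all genes. Acetate was below HSM without overlap in 77 members at 240 min (34.2% of all genes) and above it in 10 (35.8%), and at 1440 min the counts were 47 (33%) and 23 (31.1%). In HL the median acetate effect was 0.27 and 0.38 on day 1 and 1.13 and 1.94 on day 2, and after 60 min on day 2 acetate was above HSM without overlap in 81 members (35.6%) and below it in 12 (38.3%). Scaling by library size alone turned the median at 1440 min LL to 0.48, and the median over all genes to 1.02, so that the members still lay below all genes, and left all the other medians with the same sign.

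In 35 members acetate was more than 1 log2 unit below HSM at both 240 and 1440 min LL (8.03% of all genes), among them the LHCSR3 pair, BST1, LCI11, EPYC1 and Cre17.g730550, the deepest unannotated case at 1440 min. This last gene was at 0.245, 0.774 and 0.195 CPM in acetate at 1440 min LL, against 114, 124 and 79.7 CPM in HSM. In 22 members acetate was more than 1 unit above HSM at all 4 HL times (3.63%), and in 13 it was below HSM at all 4 (23.7%), the LHCSR3 pair and LCI11 included. Acetate was more than 1 unit above HSM in LL at both times in 3 members, Cre04.g218950, Cre12.g498000 and Cre07.g315050 (7.64%).

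The acetate LL level itself moved between days. It was more than 1 log2 unit higher at 1440 than at 240 min in 32 members (9.29% of all genes) and lower by as much in 8 (8.62%). In HSM the counts were 8 (3.25%) and 3 (1.65%). In 6 members acetate was more than 1 unit below HSM at 240 min and more than 1 unit above it at 1440 min (1.25%): Cre08.g370900, Cre02.g077850, Cre16.g693601, Cre11.g467710, Cre14.g620702 and Cre07.g346698, named here after their values were seen. Cre08.g370900 was at 36.1, 28.6 and 41.3 CPM in acetate at 1440 min, against 18.8, 1.17 and 16.6 CPM in HSM, so that the second HSM library stood apart. Cre02.g077850 was at 462, 227 and 388 CPM in acetate at 1440 min, against 252, 15.0 and 168 CPM in HSM, with the same library apart. Without that library, HSM replicate 2, 1 of the 6 genes (Cre14.g620702) remained over 1 unit at 1440 min, and the other 5 had acetate effects of 0.74 to 0.99, still above 0.

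Acetate and HSM at 15 min LL could be tested, because these 6 libraries took no part in the choice of the members beyond the filter on low counts and the scaling. At this time acetate lowered 57 members and raised 15 at an adjusted p under 0.05 (edgeR's quasi-likelihood test, Benjamini-Hochberg over all 13886 genes), while 28 did not pass. Over all genes 39.3% were lower and 34.7% higher (74% together), so that lower calls were more frequent among the members and higher calls less frequent than in the background. The rule favours genes in which acetate is below HSM in the later LL samples, and at 240 min this held for 84 members. Whether the tilt at 15 min goes beyond this choice was not tested. The median log2 fold change was -0.89 over the members and -0.12 over all genes. Of the called members, 47 of the 57 fell by more than 1 log2 unit and 11 of the 15 rose by as much. By difference of mean log2 CPM, whatever the call, 47 members were below -1 (26% of all genes) and 11 above 1 (21.3%). Of the 84 members in which acetate was below HSM at 240 min LL, 53 had already fallen at 15 min, 7 had risen and 24 did not pass. Of the other 16 members 4 had fallen, 8 had risen and 4 did not pass. The same split over all genes was not counted, so these numbers do not show a trait of the members.

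**Figure D5:**
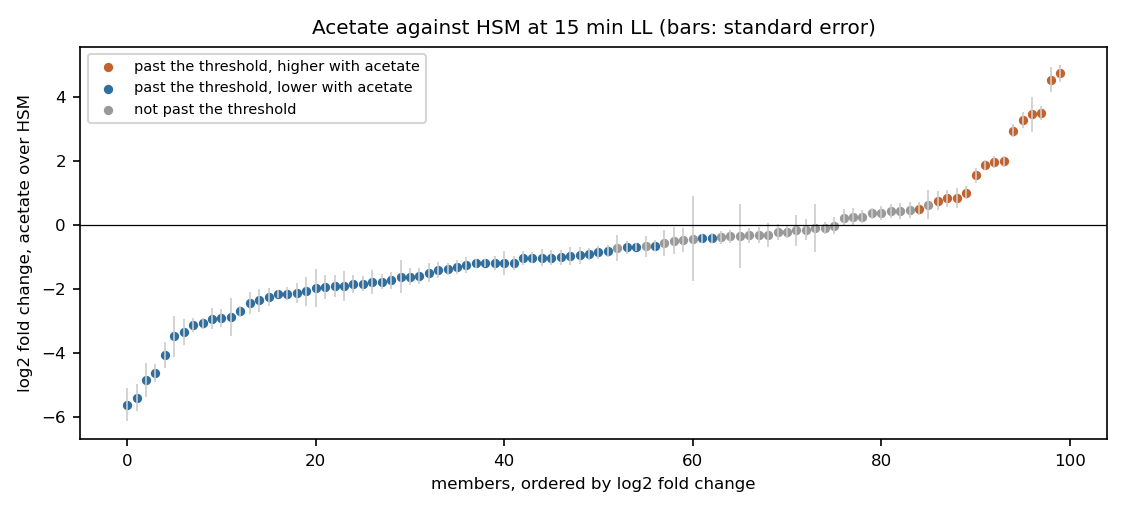
Log2 fold change of acetate over HSM at 15 min LL for the 100 members, in order of size, with its standard error (bars), coloured by the edgeR call at an adjusted p under 0.05. The 57 members that fell are on the left, down to -5.63 for LHCSR3.2, and the 15 that rose are on the right, up to 4.74 for Cre12.g498000.

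Photoprotection and CCM genes were among the deepest falls. LHCSR3.2 was at 1.53, 1.28 and 1.51 CPM in acetate, against 53.2, 47.5 and 114 CPM in HSM, a log2 fold change of -5.63 (SE 0.52, edgeR adjusted p = 5.51e-12). LHCSR3.1 fell by 4.85 (SE 0.54, edgeR adjusted p = 5.93e-10). BST1 was at 2.88, 2.95 and 3.58 CPM in acetate, against 66.8, 44.7 and 47.9 CPM in HSM, a log2 fold change of -4.08 (SE 0.41, edgeR adjusted p = 6.03e-11). LCI11 was at 42.3, 37.8 and 37.6 CPM in acetate, against 268, 225 and 271 CPM in HSM, a log2 fold change of -2.70 (SE 0.17, edgeR adjusted p = 2.95e-16). In all of these the 3 acetate libraries lay below the 3 HSM libraries.

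EPYC1 did not follow them. It was at 5008, 4290 and 4899 CPM in acetate, against 3198, 3355 and 4386 CPM in HSM, a log2 fold change of 0.38 (SE 0.21, edgeR adjusted p = 0.109) with overlapping groups, and it passed the threshold (edgeR adjusted p = 0.00907, log2 fold change 0.42) when the 6 libraries were fitted alone. Over the whole CCM list, 41 of the 71 genes fell at 15 min and 9 rose. Of the photoprotection list 19 of 55 fell and 15 rose, and of the transcription factors 123 of 371 fell and 136 rose.

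The unannotated genes with the deepest falls were Cre12.g489650 and Cre17.g730550. Cre12.g489650 had 2, 2 and 3 counts in acetate, against 85, 133 and 113 counts in HSM, a log2 fold change of -5.40 (SE 0.43, edgeR adjusted p = 1.86e-13). Cre17.g730550 was at 2.59, 2.67 and 3.98 CPM in acetate, against 92.3, 78.0 and 60.7 CPM in HSM, a log2 fold change of -4.63 (SE 0.29, edgeR adjusted p = 1.38e-16). Of the factors, Cre16.g686100 fell by 2.15 (SE 0.19, edgeR adjusted p = 2.54e-12) and Cre02.g103800 by 1.03 (SE 0.17, edgeR adjusted p = 2.18e-06), whereas Cre12.g523000 had a log2 fold change of -0.15 (SE 0.32, edgeR adjusted p = 0.689).

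The genes that rose most have no annotation in the sources used here. Cre12.g498000 was at 21.8, 21.1 and 15.5 CPM in acetate, against 0.734, 0.732 and 0.705 CPM in HSM, a log2 fold change of 4.74 (SE 0.26, edgeR adjusted p = 7.35e-18). It was also above HSM in all later conditions, for example at 53.5, 66.9 and 70.0 CPM in acetate after 60 min of HL on day 2, against 1.48, 3.43 and 1.81 CPM in HSM. Cre04.g218950 rose by 4.53 (SE 0.39) and Cre13.g570751 by 3.46 (SE 0.55), with at most 0.367 and 0.215 CPM in an HSM library.

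Cre16.g667950 and Cre13.g580000 rose at 15 min and had lower mean levels in acetate than in HSM at 240 min LL. Cre16.g667950 was at 23.3, 20.4 and 26.2 CPM in acetate at 15 min, against 2.15, 2.24 and 1.76 CPM in HSM, a log2 fold change of 3.50 (SE 0.22, edgeR adjusted p = 1.26e-16). At 240 min it was at 2.96, 2.87 and 2.12 CPM in acetate, against 5.09, 4.04 and 4.13 CPM in HSM, below HSM without overlap. Cre13.g580000 was at 3482, 3994 and 3353 CPM in acetate at 15 min, against 521, 350 and 252 CPM in HSM, a log2 fold change of 3.27 (SE 0.24, edgeR adjusted p = 2.74e-14), and at 240 min at 488, 489 and 491 CPM in acetate, against 1025, 680 and 581 CPM in HSM. At 1440 min LL the mean of Cre13.g580000 was higher in acetate, without overlap.

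The members were spread over the genome. In the reference annotation they lay on 16 of the 17 chromosomes, with none among the 157 genes kept of chromosome 15, and between 0.406% (chromosome 6) and 1.37% (chromosome 5) of the genes kept on the others. Their gene spans, intron included, had a median of 4075.5 bases, against 4652 over all annotated genes, and ran from 832 to 13119 bases.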

How the data were processed

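RNA of 42 libraries was sequenced with a stranded mRNA kit. The authors trimmed adapters, aligned reads with STAR (2.5.3 in their processing notes), counted them per gene on the reverse strand with HTSeq-count and deposited raw counts, without normalization. Of 17741 genes, 17305 had a count. A gene was kept if 9 or more libraries reached 1 CPM (13886 genes). Log2 CPM used TMM and a prior count of 2. The 15 min LL contrast was tested in edgeR 4.0.16 (glmQLFit, glmQLFTest, R 4.3.3) in 1 model of 14 conditions and 42 libraries. On simulated counts of 13886 genes for that contrast, it recovered 49 of 100 genes changed by 1 log2 unit and 99 of 100 changed by 2, with 6 false calls. A far larger share of genes was called in the measured contrast (74%), and recovery at such a share was not tested.

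The SE of a difference comes from the spread of the libraries in its 4 conditions. The members and gene lists were chosen with earlier results of these data known. Named are the 10 highest scores, members on the study's lists, the 5 largest rises and falls at 15 min LL, scores at the limit, neighbours, extremes of a range and the 5 most abundant; others were named after their values were seen. Alternatives were RLE or library-size scaling, no filter, prior counts of 0.5 and 5, condition medians, DESeq2 1.42.0, limma-voom (limma 3.58.1), the 6 libraries alone, replicate blocks and leaving out each library. RefSeq's version 5.5 annotation matched 17738 IDs and all 100 members, and was used for names, order and spans only, since the build of the counts was not shown to be the same. Promoters, proteins and lists by product name were not analysed here. Plots were drawn with matplotlib.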

Additional observations from a re-analysis of the deposited data

How the results depend on the processing

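Of the 100 members, 86 remained with RLE, 94 and 89 with prior counts of 0.5 and 5, 89 without the filter, 75 with condition medians, 72 to 100 when a library was left out (lowest without HSM at 1440 min LL replicate 2) and 64 with library size as the only scaling. That scaling moved the median difference of light responses of all genes to 0.25, -0.31, -0.22 and -1.43 at 255, 300, 1455 and 1500 min. With it the members' medians at these times were 1.59, 1.43, 1.31 and 1.06 for the difference, 0.35, 0.63, 0.17 and 0.91 for the light response in acetate and 0.90, 0.57, 1.83 and 1.53 for the acetate effect in HL. The light response in HSM was -1.47, -0.84 and -0.35 at 255, 300 and 1500 min. The acetate effect in LL was -0.84 at 240 min and reversed to 0.48 at 1440 min, and 19 members in place of 35 were lower with acetate by over 1 at both LL times.

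RLE gave 1.31 for the difference, 0.24 for the light response in acetate and 0.19 for the acetate effect in HL at 255 min, and -1.25 for the light response in HSM at 1500 min. A prior count of 0.5 gave 1.42 for the difference and 0.29 for the acetate effect in HL at 255 min, and -1.38 in HSM at 300 min. A prior count of 5 gave differences of 1.32 and 1.55 at 255 and 300 min, 0.29 in acetate and 0.25 for the acetate effect in HL at 255 min, and -1.07 in HSM at 1500 min.

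With 1 library left out and the scaling estimated anew, the differences ran from 1.28 to 1.46 (255 min), 1.42 to 1.71 (1455 min) and 2.26 to 2.51 (1500 min). The light response in acetate ran from 0.20 to 0.42 (255 min) and 0.55 to 0.74 (1455 min), and in HSM from -1.31 to -1.09 (255 min) and -1.33 to -1.08 (1500 min). The acetate effect ran from -1.36 to -1.15 (240 min LL), -0.57 to -0.41 (1440 min LL) and 0.99 to 1.22 (1455 min HL). At 255 min HL it ran from 0.10 (without HSM replicate 1 of that time) to 0.33, and was 0.15 without HSM replicate 2 or 3 of 1440 min LL or of 1455 min HL, so its size at that time is uncertain, while its sign held.

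At 15 min LL, 12 to 19 members were higher and 56 to 59 lower over all alternatives, with every named call kept except that EPYC1 passed when the 6 libraries were fitted alone (0.42, adjusted p = 0.00907). The replicate numbers did not pair the libraries (correlations of deviations 0.0227, -0.0814 and -0.029), and with the number as a replicate block 16 members were higher and 57 lower. The number in brackets in the titles (correlations 0.00708 and 0.0506) gave the same 16 and 57 as a replicate block. Depth limits the 23 members under 2 CPM most.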
